A study of Macaca mulatta with 6 samples.

Results

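Granins, prohormone-processing enzymes and BAIAP3 together serve the dense-core vesicles of peptidergic neurons. They were followed in cortical cells labelled as neurons, from rhesus monkeys (Macaca mulatta) given morphine or saline. The 10 genes were chosen by function, as the granins SCG2, SCG3, SCG5, CHGA, CHGB and VGF and the enzymes PCSK1, PCSK2 and CPE, with BAIAP3 added because it was among the strongest risers of the same comparison. All 10 were found by symbol among the 23191 genes of the deposited table, and all had a mean above the minimum of 10 normalized counts. The lowest mean was that of SCG5, with 1729 normalized counts, so that none lay near that minimum. The difference between morphine and saline thus chose BAIAP3, which is described here without a test, and the other genes were listed with results of this comparison known.

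Dense-core vesicles carry neuropeptides and growth factors and release them slowly, away from the active zones used by fast transmitters. Granins are acidic proteins that aggregate in the trans-Golgi network, help to pack the vesicle and are themselves cut into peptides. Prohormone convertases cut precursors at pairs of basic residues, carboxypeptidase E then trims those residues, and further enzymes amidate or cap the product. In the cortex such vesicles are known mainly from interneurons that make somatostatin, neuropeptide Y, cholecystokinin or vasoactive intestinal peptide, and also from pyramidal cells that release BDNF.

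The morphine libraries came from male monkeys of 3 to 4 years injected under the skin with morphine, an agonist of the mu opioid receptor, 3 times a day for 90 days. The dose was 3 mg/kg in the first week and was raised in steps to 15 mg/kg from day 29. The saline libraries came from male monkeys of the same age range injected as often with the same volume of saline. Polyadenylated RNA of cells purified from the cortex as neurons was sequenced in 3 libraries per group. The design was made to follow chromatin folding after long morphine exposure. The protocol lists 4 monkeys, 2 per group, whereas 1 animal code stands in the description of every library of a group. Libraries of a group therefore share an animal in at least 1 pair and perhaps all, so that the p-values measure only the spread between these libraries, and treatment cannot be told apart from the animal.

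Depth lay between 31238653 and 36345095 reads in the 5 libraries whose reads were recovered from the deposited values. No library stood apart: the correlation of log2 values over genes was 0.972 to 0.978 for libraries of one group and 0.950 to 0.957 for libraries of different groups. Although the cells are labelled as neurons, markers of astrocytes, oligodendrocytes and microglia were present in every library, and none of those measured was at 0. Some were high: over the 6 libraries MBP (oligodendrocytes) averaged 197809 and SLC1A3 (astrocytes) 103022 normalized counts. SNAP25, the highest pan-neuronal marker, averaged 85285, and CAMK2A, the highest excitatory neuron marker, 114830. Glial markers ranged widely, SLC1A2 (astrocytes) averaging 5352 and MOBP (oligodendrocytes) 867. The 9 oligodendrocyte markers, of which 3 rose and 3 fell, summed on average to 268600 in morphine libraries and 264712 in saline libraries. The values below therefore cannot be assigned to neurons alone. Of the microglia list AIF1, C1QA, C1QB, CX3CR1 and TMEM119 were not analysed here, nor were S100B and SOX9 of the astrocyte list. The summed level of 14 pan-neuronal markers was 253568 to 257599 normalized counts in morphine libraries and 302687 to 311927 in saline libraries, 0.833 times the saline mean. Of these neuronal markers 6 fell and 4 rose. SNAP25, also a gene of vesicle release, made the largest part of the difference in the sum. Its means were 69525 in morphine libraries and 101045 in saline libraries. Of 11 astrocyte markers 6 fell and 2 rose, with a sum of 265549 to 268414 in morphine libraries and 316304 to 321656 in saline libraries. SLC1A3 made the largest part of that difference, with means of 82479.5 in morphine libraries and 123564 in saline libraries. Of 7 microglia markers 4 rose and 2 fell, with a sum of 7758 to 8315 in morphine libraries and 5342 to 5681 in saline libraries. Of 12 genes listed for endothelial and mural cells 4 rose (COL1A1, COL1A2, ACTA2 and MYH11) and 4 fell (PECAM1, FLT1, TEK and RGS5). The collagen genes, which are also made by fibroblasts, differed most, COL1A1 being 12.2-fold and COL1A2 5.02-fold higher with morphine. In bulk RNA, fewer cells of a type and less RNA per cell cannot be told apart, and the part of these shifts in the results below was not tested.

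SCG3 was the granin that differed most, at 48.8% of its saline level, while the log2 fold changes of the other granins lay between -0.24 and 0.20. PCSK1 and CPE were lower with morphine and PCSK2 was higher. BAIAP3 was 3.61-fold higher. Of the 9 genes other than BAIAP3, 1 rose (PCSK2) and 3 fell (SCG3, PCSK1 and CPE) at an adjusted p under 0.05 in limma, a linear model fitted across all 16595 genes with a mean of at least 10. Over all genes tested 27.9% passed this threshold, 12.9% by rising and 15.0% by falling. Among the 4483 genes at or above the mean of SCG5, which are the ones of comparable abundance, 39.8% passed, so that the count among the 9 is close to the background and is read as a description only. The median log2 fold change of the 9 genes was -0.16, against 0.01 over all genes tested, and the median of its absolute size was 0.24, against 0.26 over all genes.

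**Figure D1:**
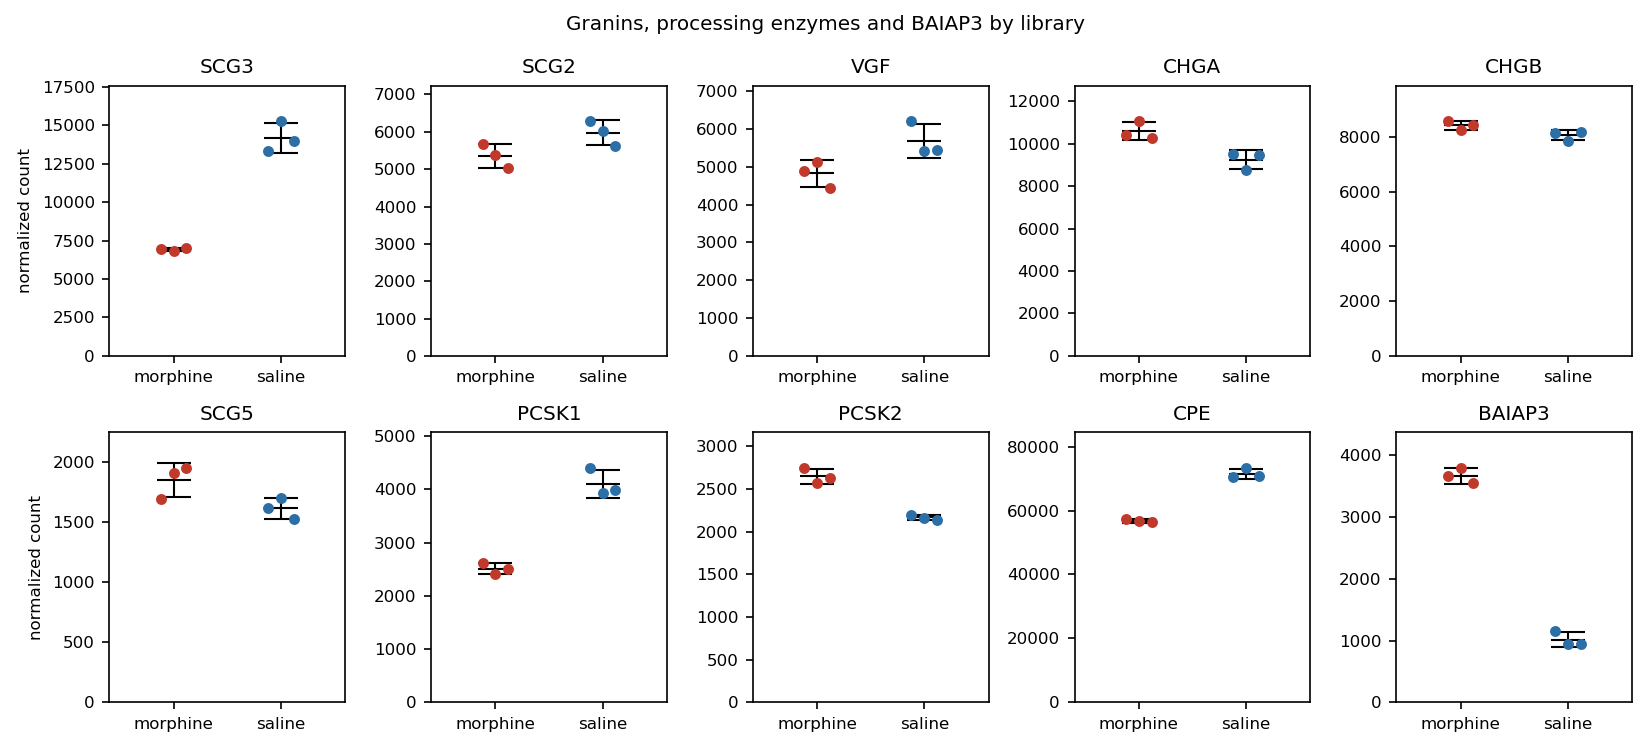
Normalized count (vertical axes, starting at 0) of each gene in the 3 morphine libraries (red) and the 3 saline libraries (blue), with the mean and SD as black bars. The 3 morphine libraries of SCG3 reach at most 6987, below all saline libraries, and those of BAIAP3 are at least 3539.7, against at most 1152 in saline libraries.

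Secretogranin III (SCG3, ENSMMUG00000017435) binds cholesterol-rich membrane and chromogranin A and so anchors the granin aggregate to the forming vesicle. It had 6960.0, 6819.7 and 6987 normalized counts in morphine libraries 1, 2 and 3, against 13328, 15257 and 13992 in saline libraries 1, 2 and 3. Every morphine library was far below every saline library, and the morphine libraries differed from each other by little. Its mean was 6922 ± 89.9 in morphine libraries and 14192 ± 980 in saline libraries (SD, n = 3 each). SCG3 fell by 1.03 ± 0.0667 (SE) on the log2 scale, with an adjusted p of 0.00199 in limma. It passed in all 6 fits that left out 1 library, with log2 fold changes between -1.08 and -0.98.

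Chromogranin A (CHGA, ENSMMUG00000009971), the partner of SCG3 in granule formation and the source of several bioactive peptides, went the other way by a small amount. It had 10426, 11053 and 10277 normalized counts in morphine libraries, against 9527, 8737 and 9463 in saline libraries. The groups did not overlap, and the gap between them was about as wide as the range inside each. The log2 fold change of 0.20 ± 0.0624 (SE) did not pass in limma over 6 libraries (adjusted p = 0.0722).

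Chromogranin B (CHGB, ENSMMUG00000013722), a granin that promotes granule formation, was nearly level, with 8568, 8241 and 8447 normalized counts in morphine libraries and 8136, 7847 and 8188 in saline libraries. The lowest morphine library stood just above the highest saline library. Its log2 fold change was 0.06 ± 0.0487 (SE), which did not pass in limma (adjusted p = 0.375).

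Secretogranin II (SCG2, ENSMMUG00000018918) is the precursor of secretoneurin. It had 5675, 5379 and 5018 normalized counts in morphine libraries, against 6284, 6020.0 and 5631 in saline libraries. The highest morphine library overlapped the lowest saline library, and the log2 fold change of -0.16 ± 0.0742 (SE) did not pass in limma (adjusted p = 0.172).

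VGF (ENSMMUG00000010164), a granin-like precursor induced by nerve growth factor and BDNF, had 4899, 5135 and 4441 normalized counts in morphine libraries and 6207, 5409 and 5449 in saline libraries. All morphine libraries lay below all saline libraries, with a gap smaller than the spread inside either group. The log2 fold change of -0.24 ± 0.0891 (SE) did not pass (limma adjusted p = 0.107). VGF, SCG2 and SCG3 thus had lower means with morphine and CHGA, CHGB and SCG5 had higher ones, and among these 6 the difference of SCG3 alone passed in limma. Summed over the 6 granins, the normalized counts were 37956 ± 741 in morphine libraries and 44769 ± 458 in saline libraries (SD, n = 3 each), 0.848 times the saline mean. That difference came from SCG3: the other 5 granins summed to 31034 ± 813 in morphine libraries and 30577 ± 1065 in saline libraries (SD, n = 3 each), 1.01 times the saline mean.

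The proprotein convertases PCSK1 and PCSK2 are the main cutting enzymes of the regulated secretory pathway, and they differed in opposite directions. PCSK1 (ENSMMUG00000005134) had 2615, 2410.3 and 2506 normalized counts in morphine libraries, against 4405, 3925 and 3981 in saline libraries. Every morphine library was well below every saline library, and the mean was 2511 ± 103 in morphine libraries and 4104 ± 262 in saline libraries (SD, n = 3 each). PCSK1 fell by 0.71 ± 0.0696 (SE) on the log2 scale (limma adjusted p = 0.00408).

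PCSK2 (ENSMMUG00000014626) had 2750.4, 2576 and 2627 normalized counts in morphine libraries, against 2196, 2163 and 2143 in saline libraries. The groups did not overlap, and the saline libraries were almost equal. PCSK2 rose by 0.29 ± 0.0507 (SE) on the log2 scale (limma adjusted p = 0.015). With any 1 library left out PCSK2 passed narrowly, at limma adjusted p-values from 0.0426 to 0.0496, and PCSK1 at 0.0153 to 0.0213.

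The PCSK2 chaperone SCG5 (ENSMMUG00000012283), a granin-like protein that PCSK2 needs to become active, had 1689, 1904 and 1949.5 normalized counts in morphine libraries and 1613, 1698 and 1523 in saline libraries. Morphine library 1 fell within the range of the saline libraries. The log2 fold change of 0.20 ± 0.081 (SE) did not pass in limma (adjusted p = 0.133).

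Carboxypeptidase E (CPE, ENSMMUG00000023400), which removes the basic residues that the convertases leave, had 57424, 56668 and 56279.9 normalized counts in morphine libraries. In saline libraries it had 70518, 73382 and 70640.6. The distance between the groups was several times the spread inside them, although the difference was moderate, at 79.4% of the saline mean. CPE fell by 0.33 ± 0.0471 (SE) on the log2 scale (limma adjusted p = 0.00866) and passed in all 6 fits without 1 library. CPE is also made by astrocytes, whose marker sum was 0.836 times the saline mean in the same libraries. The pan-neuronal sum was 0.833 times its saline mean, and the astrocyte markers were not uniform: 6 fell while GFAP and AGT rose. The part of either cell type in the fall of CPE was not tested.

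**Figure D2:**
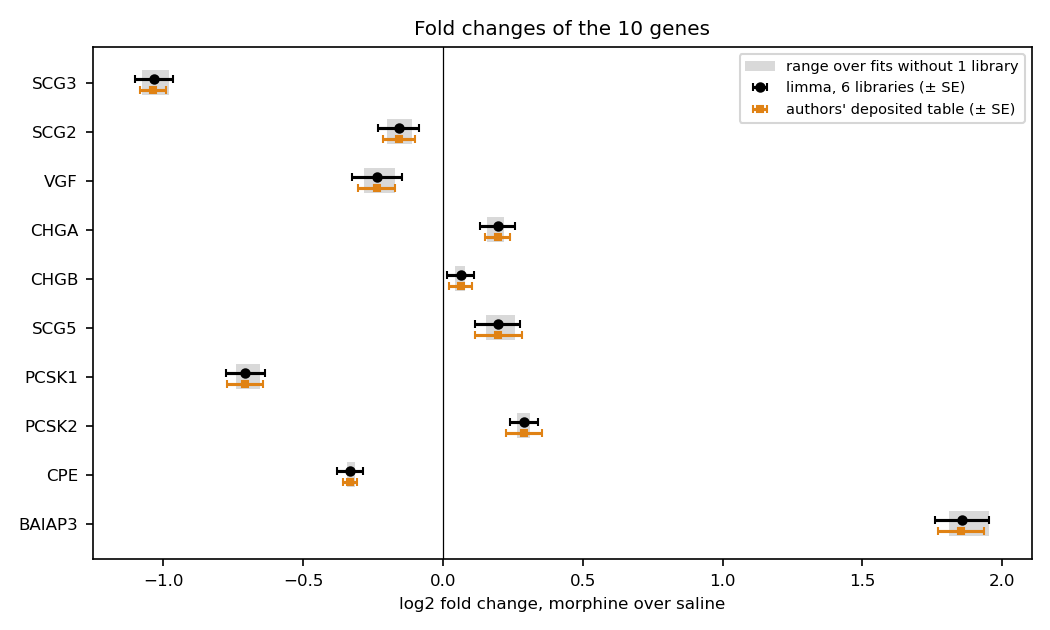
Log2 fold change of morphine over saline (horizontal axis) for each gene. Black points are limma estimates over 6 libraries and orange squares the authors' deposited values, both ± SE, and grey bars span the 6 fits that left out 1 library. SCG3, PCSK1 and CPE lie left of 0, PCSK2 and BAIAP3 right of it, and no grey bar crosses 0.

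Ratios of gene pairs taken within a library need no scaling between libraries. The pairs were chosen after the values had been seen, for known partnerships between the proteins, and only the difference between groups is read, since gene lengths were not used. The log2 ratio of PCSK1 to PCSK2 counts was -0.07, -0.10 and -0.07 in morphine libraries 1, 2 and 3, against 1.00, 0.86 and 0.89 in saline libraries. The groups were far apart, with a difference of -0.998 on the log2 scale, morphine minus saline. For SCG5 over PCSK2, the chaperone and its enzyme, the log2 ratio was -0.52 ± 0.156 in morphine libraries and -0.43 ± 0.0731 in saline libraries (SD, n = 3 each), and the groups overlapped.

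PCSK1N encodes proSAAS, an inhibitor of PCSK1, and its own level did not pass (log2 fold change 0.09 ± 0.0527, limma adjusted p = 0.266). The log2 ratio of PCSK1N to PCSK1 was 3.52 ± 0.0501 in morphine libraries and 2.73 ± 0.071 in saline libraries, 0.80 higher with morphine. The log2 ratio of SCG3 to CHGA, the adaptor and its cargo, was -0.61 ± 0.0744 in morphine libraries and 0.62 ± 0.166 in saline libraries, a difference of -1.23. PCSK1 and SCG3 carry most of these differences. In the 3 pairs other than SCG5 and PCSK2 the libraries of the groups did not overlap.

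**Figure D3:**
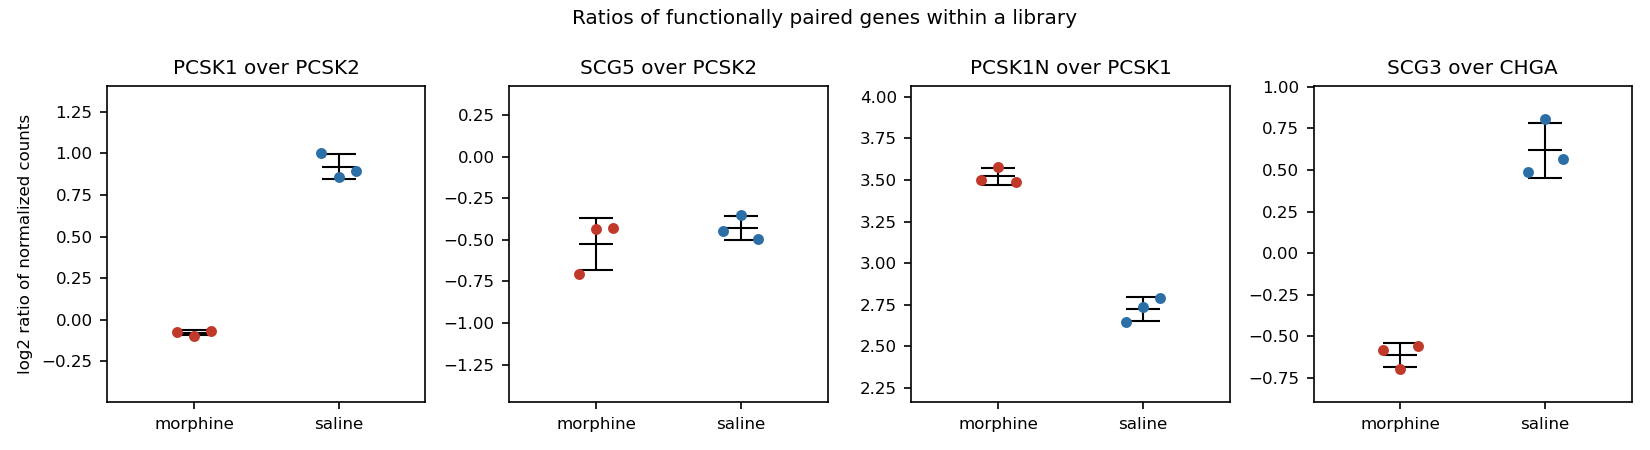
Log2 ratio of the normalized counts of gene pairs within each library (vertical axes, each spanning the same length), morphine in red and saline in blue, with mean and SD. PCSK1 over PCSK2 lies near 0 in morphine libraries and near 0.92 in saline libraries, and SCG5 over PCSK2 overlaps between groups.

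BAIAP3 (ENSMMUG00000021415) belongs to the UNC13 family of vesicle-priming proteins and acts in dense-core vesicle fusion and in the return of vesicle proteins to the trans-Golgi network. It had 3661, 3794 and 3539.7 normalized counts in morphine libraries, against 1152, 944.2 and 948.1 in saline libraries. Every morphine library was far above every saline library. Its mean was 3665 ± 127 in morphine libraries and 1015 ± 119 in saline libraries (SD, n = 3 each), and its log2 fold change was 1.86, between 1.81 and 1.95 when 1 library was left out. Its log2 fold change ranked 265 from the top among all 16595 genes tested and 3 from the top among the 4483 genes at or above the mean of SCG5. These are the values that led to its choice.

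The groups did not overlap in 7 of the 9 genes other than BAIAP3, 3 of them higher with morphine (CHGA, CHGB and PCSK2) and 4 lower (SCG3, VGF, PCSK1 and CPE). Over all genes tested the groups did not overlap for 48.7%, with 24.1% higher and 24.6% lower, and for 67.8% of the genes at or above the mean of SCG5, so that the share among the 9 is near that background. The coefficient of variation inside a group ran from 1.02% for CPE in morphine libraries to 11.7% for BAIAP3 in saline libraries.

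Among the 9 genes more of the small differences passed under count models. The authors' deposited table gave log2 fold changes of -0.24 for VGF, 0.20 for CHGA and -0.16 for SCG2, with adjusted p-values of 0.00142, 0.0001 and 0.0212. Of the 9 genes, 2 rose and 5 fell by the authors' deposited table, where 29.5% of the 19576 genes with an adjusted p passed. With edgeR on the 5 libraries of recovered reads, 2 rose (CHGA and PCSK2) and 4 fell (SCG3, VGF, PCSK1 and CPE), with 28.0% of all genes called. With DESeq2 on the same 5 libraries, 3 rose (CHGA, SCG5 and PCSK2) and 4 fell (those of edgeR), with 33.2% called. Limma with a trend of the spread on intensity, over 6 libraries, called the same 6 genes as edgeR, with 34.4% of all genes called. With the replicate number as a block in limma, 9.50% of all genes passed, and SCG3 and PCSK1 of the 9. PCSK2, SCG3, PCSK1 and CPE passed in each of these tests other than the block, CHGB passed in none of them, and no gene changed direction.

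The rest of the pathway, described from lists of related genes, moved in both directions. Of 13 other genes of prohormone processing and amidation 3 rose and 3 fell, with a median log2 fold change of 0.09. That is 46.2%, against 27.9% of all genes tested and 39.8% of the genes at or above the mean of SCG5. Each pathway list mixes genes above and below that mean, so that these shares are read as descriptions only. PCSK4, a convertase known mainly from germ cells, had a mean of 621.0 ± 46.9 normalized counts in morphine libraries and 308 ± 39.5 in saline libraries, and rose by 1.02 ± 0.114 (SE, limma adjusted p = 0.0052). The glutaminyl cyclases QPCT and QPCTL, which cap peptides with pyroglutamate, parted: QPCTL, the Golgi form, rose by 0.53 and QPCT, the secreted form, fell by 0.60 on the log2 scale. QPCT lost its limma call when morphine library 1, 2 or 3 was left out (adjusted p = 0.065, 0.0616 and 0.0713).

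PAM, the enzyme that amidates peptides, fell by 0.19 ± 0.0519 (SE, limma adjusted p = 0.0472), but passed in none of the 6 limma fits without 1 library (adjusted p from 0.0623 to 0.129). The aminopeptidase gene RNPEP rose by 0.26, also without passing in any of those fits (limma adjusted p between 0.0525 and 0.0846). CPD, a carboxypeptidase of the trans-Golgi network related to CPE, fell by 0.81 with wide spread, and kept its limma call only when library 1 of either group was left out (adjusted p = 0.0408 and 0.0464, against 0.112 to 0.12 in the other fits). The convertases FURIN, PCSK5, PCSK6 and PCSK7, named here after their values had been seen, did not pass, with log2 fold changes between -0.40 and 0.18. Without 1 library 2 of the 13 genes rose and 0 to 2 fell.

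Of 14 peptidases that degrade neuropeptides 2 rose and 1 fell, and their median log2 fold change was 0.03. That is 21.4%, against 27.9% of all genes tested and 39.8% of the genes at or above the mean of SCG5. ECE2, an acidic endopeptidase of the secretory pathway, rose by 0.65 with a wide spread in saline libraries (8862 ± 103 in morphine libraries and 5712 ± 1119 in saline libraries; SD, n = 3 each). Its limma call was lost when any 1 morphine library (adjusted p of 0.09 to 0.096) or saline library 3 (0.0626) was left out. ACE rose by 0.37, and of the 6 fits that left out 1 library it passed in that without saline library 3 (limma adjusted p = 0.047, against 0.0576 to 0.0754). TPP2 fell by 0.39, and its limma adjusted p was 0.0504 when morphine library 2 was left out.

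Of 19 genes of vesicle formation and sorting 4 rose and 3 fell, with a median log2 fold change of 0.06. That is 36.8%, against 27.9% of all genes tested and 39.8% of the genes at or above the mean of SCG5. HID1, which dense-core vesicles need to leave the trans-Golgi network, had 8367, 8149 and 8181 normalized counts in morphine libraries, against 5544, 5398 and 5713 in saline libraries. The groups were far apart, and HID1 rose by 0.57 ± 0.0492 (SE, limma adjusted p = 0.00331), in all 6 fits without 1 library. VPS52, a subunit shared by the EARP and GARP tethering complexes, rose by 0.37, whereas VPS50, the subunit that defines EARP, fell by 0.55. The other shared subunits VPS51 and VPS53, named after their values had been seen, did not pass, with log2 fold changes of 0.09 and -0.02 (limma adjusted p = 0.47 and 0.874).

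RAB2A, a small GTPase of vesicle maturation, fell by 0.53 to 6453 ± 382 normalized counts in morphine libraries, against 9333 ± 156 in saline libraries (SD, n = 3 each). ARFIP1, a protein of the trans-Golgi network, fell by 0.64. It lost its limma call when morphine library 1 (adjusted p = 0.053) or saline library 1 or 2 (0.0697 and 0.0724) was left out. PTPRN2, a transmembrane protein of the vesicle itself, rose by 0.27, but of the 6 fits that left out 1 library it passed in that without morphine library 3 (limma adjusted p = 0.0406, against 0.0579 to 0.0708). Without 1 library 2 or 3 genes of vesicle formation and sorting rose and 2 or 3 fell. VTI1A of this list was not analysed here.

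Of 32 measured genes of vesicle transport, docking and release 11 fell and 3 rose, with a median log2 fold change of -0.24. That is 43.8%, against 27.9% of all genes tested (15.0% by falling) and 39.8% of the genes at or above the mean of SCG5. In the same libraries the pan-neuronal markers had a median of -0.19, and SNAP25 is on both lists. SYTL2, a RAB27 effector that docks vesicles, had 2119, 2207 and 2199 normalized counts in morphine libraries, against 4586, 5047 and 4755 in saline libraries. The groups were far apart, and SYTL2 fell by 1.14 ± 0.0582 (SE, limma adjusted p = 0.00151). UNC13C, a priming factor of the family of BAIAP3, fell by 0.74 to 4141 ± 122 in morphine libraries, against 6937 ± 131 in saline libraries (SD, n = 3 each).

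DOC2B, a calcium sensor of the release machinery, rose by 0.50 ± 0.0491 (SE, limma adjusted p = 0.0041). The synaptotagmin gene SYT5 rose by 0.35, a call that held when saline library 3 was left out (limma adjusted p = 0.0304) and in none of the other 5 such fits (0.0748 to 0.0947). The GTPase gene RAB3B rose by 0.77, a call that held when library 3 of either group was left out (limma adjusted p = 0.0496 and 0.0181) and not in the other fits (0.0534 to 0.073), nor with edgeR on 5 libraries (adjusted p = 0.0593). Among the other UNC13 genes, UNC13D was low (41.2 ± 3.29 in morphine libraries and 78.8 ± 17.4 in saline libraries) and fell by 0.90, a call that held when saline library 1 or 3 was left out (limma adjusted p = 0.0254 and 0.0255) and not in the other fits (0.0528 to 0.0604), nor with edgeR or DESeq2 on 5 libraries (adjusted p = 0.058 and 0.0529). UNC13A and UNC13B, named after their values had been seen, did not pass (limma adjusted p = 0.839 and 0.0997). Both varied widely between saline libraries, and UNC13A also between morphine libraries (217, 112 and 70.1 normalized counts). Without 1 library 1 to 3 genes of vesicle transport, docking and release rose and 8 to 11 fell. CPLX2, RAB3D, SYTL4 and VAMP2 of this list were not analysed here.

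Of 22 neuropeptide precursors, the cargo of the pathway, 8 rose and 3 fell, with a median log2 fold change of 0.20. That is 50%, against 27.9% of all genes tested (12.9% by rising) and 39.8% of the genes at or above the mean of SCG5. One of the rises was NTS, which reached the minimum mean through its morphine libraries alone, and with a minimum mean of 50 the count was 7. The inhibitory neuron markers, which share SST and VIP with this list, had a median of 0.05, with 2 rises and 1 fall among 11. CARTPT rose by 1.97 ± 0.0987, PENK by 1.53 ± 0.068 and NPY by 0.77 ± 0.0681 on the log2 scale (SE, limma adjusted p = 0.00151, 0.00114 and 0.0034). VIP fell by 0.57 and BDNF by 0.63, and NUCB2, the nesfatin precursor, by 0.42. The call of NUCB2 held when saline library 3 was left out (limma adjusted p = 0.0471) and not in the other 5 such fits (0.0543 to 0.0922). PDYN, SST, TAC1 and CCK, named after their values had been seen, also rose. The summed precursor level was 22717 ± 379 normalized counts in morphine libraries and 18159 ± 162 in saline libraries (SD, n = 3 each), 1.25 times the saline mean. PENK (2464 in morphine and 853 in saline libraries) and SST (4995 and 3465) made the largest parts of that difference. The sum of PCSK1, PCSK2 and CPE, which CPE dominates, was 0.796 times the saline mean. That of the 13 other genes of processing and amidation was 1.04 times the saline mean. A relation between these sums was not tested.

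NTS, the neurotensin precursor, named after its values had been seen, had 29.76, 29.96 and 49.96 normalized counts in morphine libraries and was listed at 0 in every saline library. Without 1 library 6 or 7 precursors rose and 2 or 3 fell. ADCYAP1, CORT and GAL of the precursor list were not analysed here.

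**Figure D4:**
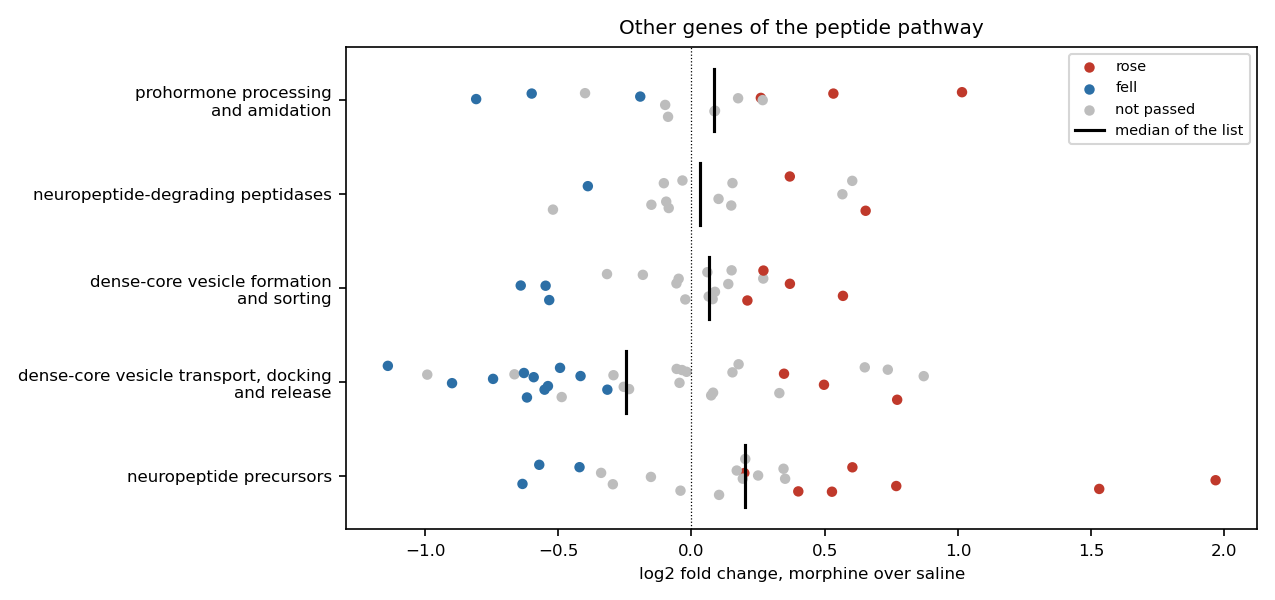
Log2 fold change of morphine over saline (horizontal axis) of each measured gene in 5 lists of the peptide pathway, coloured by its limma call, with the median of each list as a black bar. NTS, at 0 in saline libraries, is left out of the points. The median lies at -0.24 for transport, docking and release and at 0.20 for neuropeptide precursors.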

How the data were processed

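Polyadenylated RNA was sequenced in 3 morphine and 3 saline libraries, grouped by sample title. The authors deposited normalized counts, a signal in which reads are divided by 1 size factor per library and, per the file headers, their own log2 fold changes, test statistic (a score) and p-values. DESeq2 1.18.1, Bowtie2 2.1.0, StringTie and the human build hg19 are listed by the submitters' processing notes with no role for each, while the identifiers are those of rhesus genes. The build used for counting and the use of strand are not given in the sources used here, so no coordinates are printed. A second deposited table held 2332 genes with identical values and was not used. A gene name table gave a symbol to 15436 of the 23191 identifiers (66.6%).

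Values were tested with limma 3.58.1 (R 4.3.3) on log2(value + 1), with group as the only term, for 16595 genes with a mean of at least 10. Fold changes are on that scale, which understates changes of low genes. Two-sided p-values underwent Benjamini-Hochberg adjustment over all genes tested, with a threshold of 0.05. Every library gave whole multiples of 1 step within 0.001 for 100% of values. The count tests (edgeR 4.0.16 quasi-likelihood and DESeq2 1.42.0) left out saline replicate 2, a choice made after the data had been seen. Its values too were whole multiples of its step, 1.002. A check of units did not accept a step so close to 1 as recovered reads. Pairs of libraries in a group differed by more than sampling noise (mean chi-square per gene of 17.5 to 22.3, where noise alone gives 1). All tests were tried on simulated data with independent libraries and few changed genes. That trial cannot give their error rate here, where libraries share animals. Earlier results of these data were known when the 10 genes, the 13 lists and the naming rule were chosen. The rule took, from each of the 5 pathway lists, up to 3 genes per direction with the largest change and a mean of at least 50. The 8 marker lists are described by counts, medians and sums, with single markers named after their values had been seen. For the other marker lists, limma called 0 rises and 3 falls of 13 for excitatory neurons and 2 and 0 of 6 for oligodendrocyte precursors. For inhibitory neurons it called 2 and 1 of 11 (SST and VIP among them). Alternatives were TMM and upper-quartile scaling, a minimum mean of 50 or none, a pseudocount of 0.5 or 5, an intensity trend in limma, a replicate block, leaving out each library in turn, and the count tests. Plots were made in Python 3.11.15 with matplotlib 3.10.9.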

Additional observations from a re-analysis of the deposited data

How the results depend on the processing

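Among the 9 tested genes, SCG3 and PCSK1 passed under all 16 alternatives, and none of the 10 genes changed direction under any. The count of rises among the 9, which was 1, became 2 with edgeR and with an intensity trend, 3 with DESeq2 and 0 with the replicate block. Whether the replicate numbers pair the libraries is not known. Deviations of same-numbered libraries correlated at -0.06, -0.004 and -0.03, and those of differently numbered libraries at -0.025 to 0.052. With the replicate block, which leaves fewer degrees of freedom, all-gene counts were 681 rises and 896 falls (2143 and 2488 without it), PCSK2 and CPE did not pass (adjusted p = 0.0682 and 0.0581), and the lists gave 0 falls for processing, 0 rises and 0 falls for peptidases, 1 rise for formation, 1 rise and 7 falls for transport and 1 fall for precursors. Without a filter the counts were 1363 rises and 1630 falls over all genes, 1 fall for processing, 0 rises for peptidases and 2 rises for formation. Falls of peptidases were 2 with DESeq2, edgeR, an intensity trend, a minimum of 50 and a pseudocount of 5. Rises in transport were 6 with DESeq2 and 5 with edgeR and with the trend. Without 1 library 1064 to 1502 genes rose and 1465 to 1680 fell, with 0 to 2 falls for processing, 0 or 1 rises and 0 or 1 falls for peptidases, 2 or 3 rises for formation and 1 to 3 for transport. Upper-quartile scaling gave 2353 rises and 2292 falls. The causes were not tested beyond these constructions. Depth did not limit the 10 genes, while 3 libraries per group, with shared animals, limit every p-value.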
